A study of Mus musculus with 24 samples.

Results

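The comparison described here set the gastrocnemius, a calf muscle, of 6 mice without dystrophin against that of 6 mice with it. The 6 dystrophin-deficient arrays came from 3 mdx mice and 3 Cmah KO mdx mice, which carry both mutations. The 6 dystrophin-positive arrays came from 3 wild type and 3 Cmah KO mice. They are 12 of the 24 arrays of the study, and the other 12 hold the hearts of the same animals. All animals were males aged 2 months, and each array was labelled from 25 ng of total RNA. The arrays were chosen by their titles alone, and Cmah status was kept as a covariate, so that the contrast is the main effect of dystrophin loss. The mdx mouse is a spontaneous mutant whose Dmd gene carries a premature stop codon in every cell. Cmah encodes the enzyme that makes the sialic acid Neu5Gc, and the Cmah KO carries a mutation like the one fixed in humans. Both groups without dystrophin carry the strain label C57BL6/10J and both groups with dystrophin carry C57BL/6J, so that strain and dystrophin cannot be told apart.

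Dystrophin ties the actin cytoskeleton of the muscle fibre, through the dystroglycan and sarcoglycan complex in the membrane, to the basement membrane outside it. Fibres that lack it tear as they contract, and mdx limb muscle is known for repeated rounds of fibre death and repair. In repair, macrophages clear dead fibres, satellite cells divide and fuse, and the young fibres make embryonic forms of the contractile proteins before the adult ones replace them.

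The deposited values are linear intensities, and log2 intensities are given below, on which a difference of 1 is a 2-fold change. Changes are dystrophin-deficient minus dystrophin-positive, with the standard error from limma. A probe set was called when its Benjamini-Hochberg adjusted p in limma, over the 29518 probe sets tested, lay below 0.05. The tissue labels matched the markers: the 8 skeletal muscle markers summed to 75000 to 90000 intensity units in the dystrophin-deficient arrays and 72690 to 89390 in the dystrophin-positive ones, against 2008 to 20490 in heart. In 4 gastrocnemius arrays, 1 of each group (replicate 1 of mdx, of Cmah KO mdx and of Cmah KO, and replicate 3 of wild type), the spiked bioB control read 11.34 to 11.75, against 9.49 to 10.69 in the other 8. In wild type replicate 1 the markers of several leukocyte types were high: those of T and NK cells summed to 3507, against 258.7 to 903.3 in the other 5 dystrophin-positive arrays.

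Dmd itself was lower in every array labelled without dystrophin. It read 8.59, 8.45 and 8.06 in mdx and 8.57, 8.44 and 7.54 in Cmah KO mdx, against 10.26, 10.06 and 10.17 in wild type and 10.24, 9.99 and 10.22 in Cmah KO. The groups did not overlap, and the change was -1.88 ± 0.21 (limma adjusted p = 0.00184). A second Dmd probe set fell by 1.80, whereas 2 dim ones read 0.16 and 0.04. The call held without any 1 array (changes of -1.96 to -1.73), and within the 4 arrays with high bioB the change was -1.63. Of the 14 measured genes of the dystrophin complex, 1 was called, and it was Dmd. The median of the 14 was 0.07. Utrn, which encodes the dystrophin relative utrophin, read 0.05 ± 0.16, and Dag1, which encodes dystroglycan, read 0.11 ± 0.18. Nos1, the neuronal nitric oxide synthase that dystrophin anchors, read -0.79 ± 0.39 (adjusted p = 0.52), and Sntb1, a syntrophin, read 1.13 ± 0.34 (adjusted p = 0.17). Cmah read 0.32 ± 0.38 (adjusted p = 0.895). Nnt, a mitochondrial gene partly deleted in C57BL/6J, read -0.17 ± 0.23 (adjusted p = 0.908).

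Across the array, 299 of 29518 probe sets were called, or 1.01%, with 256 up (0.867%) and 43 down (0.146%). In 234 of the 299 the 6 and 6 arrays did not overlap. Over all tested genes, called or not, the arrays did not overlap in 229 that were higher (1.73%) and 73 that were lower (0.552%). At 1 probe set per gene, 191 of 13224 genes were called, or 1.44%, with 169 up (1.28%) and 22 down (0.166%). The median change was 1.83 over the genes called up and -1.45 over those called down, against 0.02 over all genes tested, of which 52% were higher. The number of called probe sets depended on single arrays. It was 151 without wild type replicate 2, 152, 122 and 116 without Cmah KO replicates 1, 2 and 3, 108 without mdx replicate 2, and 112 and 108 without Cmah KO mdx replicates 2 and 3. These are called the 7 sensitive arrays below. Without wild type replicate 1 the count was 481, and without any 1 of the other 4 arrays it lay between 215 and 349. The 4 arrays with high bioB alone hold 1 array of each group, which leaves little power for calls, so no count is given. Without those 4 arrays the number of called probe sets was 211. With the bioB sets as a block it was 1196, and with the gap between the Gapdh control's 3′ and 5′ signals, a measure of RNA integrity, as a covariate it was 868. List counts from these 2 fits, called the block and covariate fits below, are given where they moved. The 2 fits are not separate checks: the 4 arrays with high bioB also had the largest Gapdh gaps (0.764 to 1.021, against 0.363 to 0.709).

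The rises and falls were seen in both Cmah backgrounds. All 191 called genes had the same sign in mdx against wild type as in Cmah KO mdx against Cmah KO, pairs of groups that share no array, though the genes were chosen on the mean of both. Genes called up had a median change of 2.02 with Cmah absent (Cmah KO mdx against Cmah KO) and 1.55 with Cmah intact (mdx against wild type). The change was larger in size with Cmah absent in 155 of the 191. The same share over all genes tested was not counted. The Cmah-intact side includes wild type replicate 1, where leukocyte markers were high. Its phagocyte markers summed to 26430 intensity units, against 9341 to 13120 in the other dystrophin-positive arrays. Whether that array accounts for the smaller changes was not tested. The difference between the backgrounds was itself called at 0 of 29518 probe sets by limma (311 at an unadjusted p below 0.05, where evenly spread p would give 1476). Within a background, 33 probe sets (0.112%) were called in Cmah KO mdx against Cmah KO and 5 (0.0169%) in mdx against wild type. Cdca5, needed for sister chromatid cohesion, read 4.03 in Cmah KO mdx against Cmah KO and 1.34 in mdx against wild type. Its difference between the backgrounds was not called, and its dystrophin-positive mean was low, at 3.31.

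**Figure D1:**
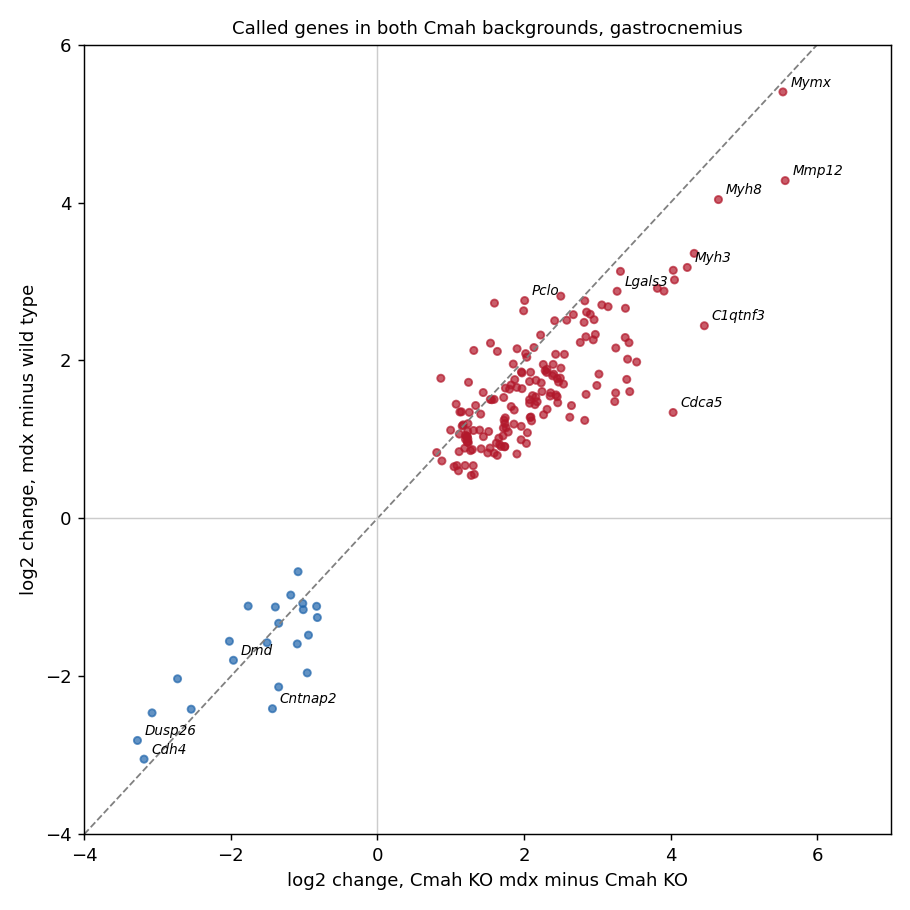
Each point is 1 of the 191 called genes, with its log2 change in Cmah KO mdx against Cmah KO on the x axis and in mdx against wild type on the y axis (red, called up; blue, called down; dashed line, equal changes). All 191 points have the same sign on both axes, and 155 have the larger change in size on the x axis.

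Genes of 3 embryonic or perinatal contractile proteins rose. Myh3, the embryonic myosin heavy chain, read 10.13, 10.83 and 11.59 (lowest, median and highest of 6) in dystrophin-deficient muscle, against 6.48, 7.20 and 7.60 in dystrophin-positive muscle. Myh8, the perinatal heavy chain, read 8.57, 9.34 and 10.31 in dystrophin-deficient muscle, against 4.10, 4.97 and 6.37. Myl4, the embryonic light chain, read 11.62, 12.12 and 12.86, against 9.12, 9.61 and 10.47. In none of the 3 did the groups overlap, and the changes were 3.70 ± 0.31, 4.35 ± 0.36 and 2.46 ± 0.28 (limma adjusted p = 0.000296, 0.000296 and 0.00232). These 3 were the called members among 7 developmental contractile genes, and the same count was reached without any 1 array. The median of the 7 was 2.46, the change of Myl4, and within the 4 arrays with high bioB it was 0.45. Tnnt2, a troponin T of heart and embryonic muscle, read 2.79 ± 0.90 without a call (adjusted p = 0.21), and Actc1, the cardiac actin, read 0.55 ± 0.22. The adult fast fibre genes were level: their 13 members ran from -0.06 to 0.12 with 0 called, and Myh1, a fast myosin heavy chain, read 0.12 ± 0.16.

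The genes of the proteins that fuse myoblasts rose from near the lower limit of the array. Mymx, which encodes myomixer, read 8.16, 9.60 and 11.32 in dystrophin-deficient muscle, against 2.59, 3.75 and 7.41 in dystrophin-positive muscle. Mymk, which encodes the membrane protein myomaker, read 6.23, 7.83 and 8.46, against 3.65, 3.76 and 4.86. No dystrophin-deficient array of either gene lay below a dystrophin-positive one, and the changes were 5.47 ± 0.69 and 3.54 ± 0.41 (limma adjusted p = 0.00388 and 0.00254). Both dystrophin-positive means were dimmer than 4.66, below which 40% of the gastrocnemius values lay, and the sizes of these rises are uncertain. Runx1, a transcription factor raised in denervated and damaged muscle, rose by 1.98 ± 0.23 (adjusted p = 0.00277). It read 8.97, 9.36 and 9.70 in dystrophin-deficient muscle, against 6.75, 7.44 and 7.99 in dystrophin-positive muscle, without overlap. Among its 6 tested probe sets, the dimmest changed by 0.33, 0.12 and 0.42 without a call.

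These were the 3 called members of 21 satellite cell, myogenic and fusion genes, and each kept its call without any 1 array. The median of that list was 0.67, with 18 members higher. Myog, the transcription factor of differentiating myoblasts, read 1.84 ± 0.49 (adjusted p = 0.11), Myod1 read 0.91 ± 0.34 (adjusted p = 0.30), and Pax7, which marks satellite cells, read 0.67 ± 0.35 (adjusted p = 0.55). Ncam1, the neural cell adhesion molecule of young fibres, read 1.20 ± 0.30 without overlap and without a call at its brightest probe set (adjusted p = 0.094), though 3 of its 6 probe sets were called. The block and covariate fits called 6 and 5 members of the list. Sox11, a transcription factor of embryonic tissues and outside the fixed lists, rose by 3.84 ± 0.51 (adjusted p = 0.00491). It read 9.32, 10.88 and 11.72 in dystrophin-deficient muscle, against 5.51, 6.98 and 8.64, and 5 of its 6 tested probe sets were called.

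**Figure D2:**
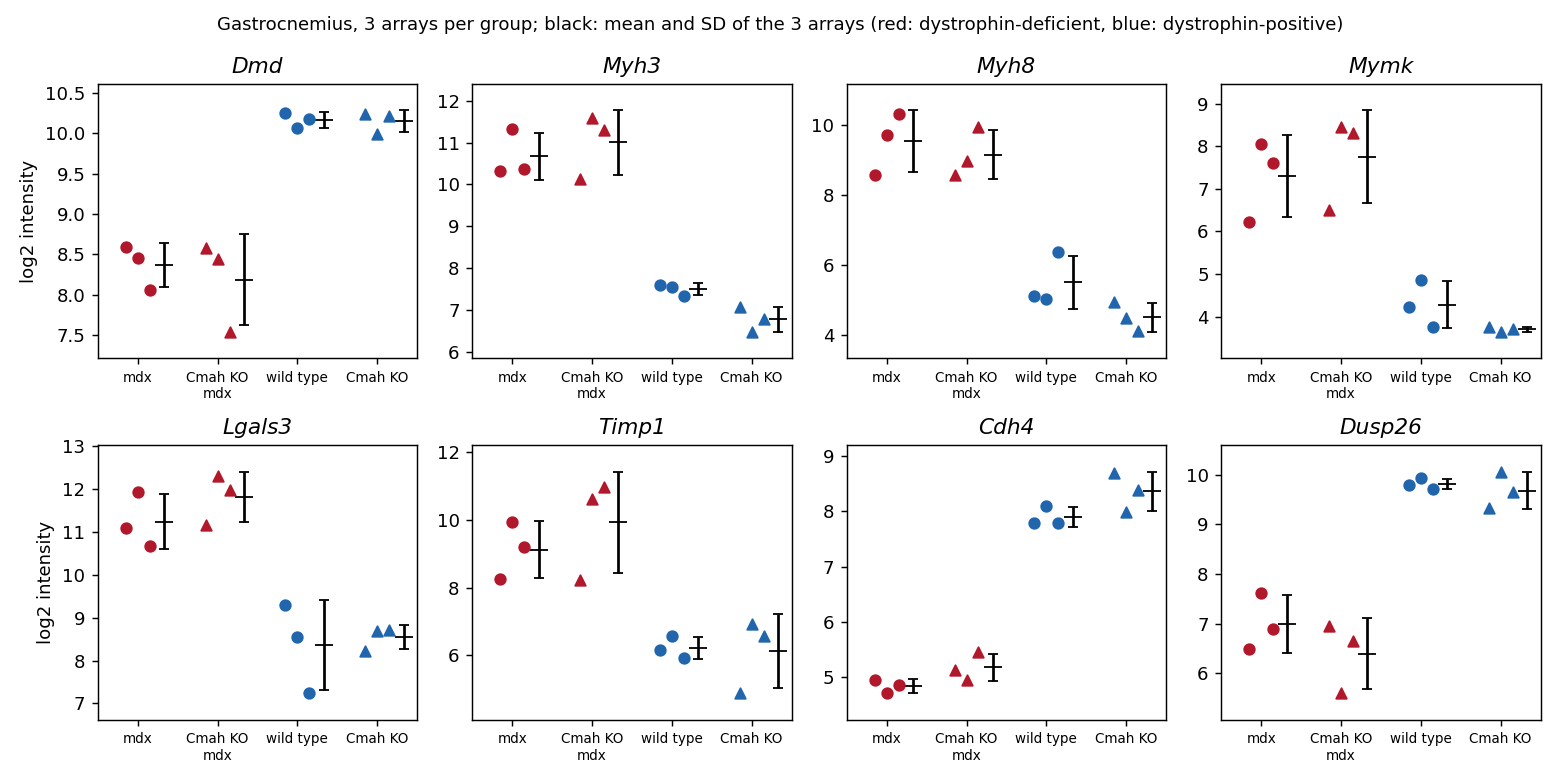
Log2 intensity of 8 genes in each of the 12 gastrocnemius arrays (red, mdx and Cmah KO mdx; blue, wild type and Cmah KO; black, mean and SD of the 3 arrays of a group). In every panel the red and blue points do not overlap: Dmd, Cdh4 and Dusp26 are lower, and Myh3, Myh8, Mymk, Lgals3 and Timp1 higher, in dystrophin-deficient muscle.

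The genes of the gamma and alpha subunits of the fetal acetylcholine receptor rose together, and their promoters are shown for the E-boxes they hold. The gamma subunit, encoded by Chrng, is made in fetal and denervated fibres and replaced by the epsilon subunit (Chrne) after innervation, whereas the alpha subunit, encoded by Chrna1, belongs to both forms. An E-box, CANNTG on either strand, is the motif that MyoD, myogenin and their relatives bind, and CAGCTG is a form they prefer. Below are RefSeq promoters (GRCm38.p6, 300 bases that end shortly after the gene's start, 5′ to 3′ on its strand) with E-boxes in capitals, for Chrng (chr1:87205561-87205860, plus strand), Chrna1 (chr2:73580289-73580588, minus strand), Myh3 (chr11:67078050-67078349, plus strand) and Myh8 (chr11:67276874-67277173, plus strand).
Chrng: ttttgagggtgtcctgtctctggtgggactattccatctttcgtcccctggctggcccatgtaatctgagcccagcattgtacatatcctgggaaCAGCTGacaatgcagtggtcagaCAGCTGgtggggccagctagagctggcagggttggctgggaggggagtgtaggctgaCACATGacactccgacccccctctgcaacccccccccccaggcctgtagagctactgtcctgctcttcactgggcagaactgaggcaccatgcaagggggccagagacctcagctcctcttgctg
Chrna1: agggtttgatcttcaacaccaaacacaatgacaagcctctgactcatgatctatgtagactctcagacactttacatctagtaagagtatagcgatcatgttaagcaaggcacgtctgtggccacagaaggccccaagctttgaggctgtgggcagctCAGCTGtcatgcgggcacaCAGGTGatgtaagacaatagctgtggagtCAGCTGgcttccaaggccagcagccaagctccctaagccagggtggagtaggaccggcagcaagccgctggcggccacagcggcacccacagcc
Myh3: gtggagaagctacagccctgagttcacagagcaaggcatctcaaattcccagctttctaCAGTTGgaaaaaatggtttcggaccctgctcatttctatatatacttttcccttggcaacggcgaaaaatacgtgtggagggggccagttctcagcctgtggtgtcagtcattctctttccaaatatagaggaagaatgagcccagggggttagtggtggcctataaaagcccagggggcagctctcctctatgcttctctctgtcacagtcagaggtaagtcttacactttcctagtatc
Myh8: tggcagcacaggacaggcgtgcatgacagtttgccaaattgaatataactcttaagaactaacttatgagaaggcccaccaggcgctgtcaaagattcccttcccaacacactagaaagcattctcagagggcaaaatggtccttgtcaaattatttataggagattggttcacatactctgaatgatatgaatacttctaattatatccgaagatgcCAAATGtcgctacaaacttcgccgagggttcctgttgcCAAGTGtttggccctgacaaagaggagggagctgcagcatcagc
Chrng and Chrna1 hold CAGCTG at 2 places each, and Myh3 and Myh8 at none. Of the 32851 RefSeq promoters, 16.3% hold CAGCTG at least once and 1.9% at least 2 times, and 72.3% hold some CANNTG. A match to these letters is a description of the sequence and was not tested as a binding site.

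Chrng read 6.33, 7.48 and 8.40 in dystrophin-deficient muscle, against 4.66, 5.37 and 5.95 in dystrophin-positive muscle. Chrna1 read 9.39, 10.40 and 11.39, against 8.16, 8.34 and 8.94. The groups did not overlap in either gene, and the changes were 2.11 ± 0.31 and 1.97 ± 0.34 (limma adjusted p = 0.009 and 0.0201). The call on Chrng held without any 1 array, and that on Chrna1 was lost (adjusted p up to 0.0647) without Cmah KO replicate 1 or 3, mdx replicate 2 or Cmah KO mdx replicate 2 or 3. They were the 2 called members of 12 genes of the neuromuscular junction and denervation, with a median of 0.52, and the block and covariate fits called 4 each. Chrnb1, the beta subunit, read 0.88 ± 0.19 without overlap (adjusted p = 0.051) and Chrnd, the delta subunit, 1.04 ± 0.29 (adjusted p = 0.13). Chrne read 0.11 ± 0.18 (adjusted p = 0.93) and Musk, the receptor kinase of the junction, 0.45 ± 0.27. Pclo, piccolo of the presynaptic active zone, rose by 2.38 ± 0.22 (adjusted p = 0.000405) and read 5.54, 5.87 and 6.53 in dystrophin-deficient muscle, against 3.32, 3.44 and 4.10, below the 40th percentile.

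Igf2, the fetal insulin-like growth factor, was the called member of 15 growth and atrophy regulators. It read 10.39, 11.50 and 11.87 in dystrophin-deficient muscle, against 7.36, 8.76 and 10.11 in dystrophin-positive muscle. The change of 2.65 ± 0.45 (limma adjusted p = 0.0165) was lost as a call without mdx replicate 2 or Cmah KO mdx replicate 2 or 3 (adjusted p up to 0.0539). Igf1 read 0.06 ± 0.21, and the ubiquitin ligases of muscle atrophy, Fbxo32 and Trim63, read -0.60 ± 0.26 and -0.37 ± 0.23, all without a call.

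Genes of dividing cells were higher. Of 26 cell cycle genes 25 were higher, with a median of 1.43, and 4 were called up. E2f2, a transcription factor of S phase entry, read 6.71, 7.96 and 8.78 in dystrophin-deficient muscle, against 4.89, 5.48 and 6.34 in dystrophin-positive muscle. Its rise of 2.34 ± 0.36 (limma adjusted p = 0.0107) held without any 1 array. Ccna2, cyclin A2, rose by 2.42 ± 0.46, Birc5, survivin, by 2.36 ± 0.50, and Cdca5 by 2.69 ± 0.53 from a dystrophin-positive mean below the 40th percentile (adjusted p = 0.0301, 0.0475 and 0.0333). The calls on Ccna2, Birc5 and Cdca5 depended on single arrays: the list kept 1 call without Cmah KO replicate 1, 2 or 3, mdx replicate 2 or Cmah KO mdx replicate 2 or 3, kept 2 without wild type replicate 2 or 3, and had 7 and 10 without wild type replicate 1 and mdx replicate 3. Without the 4 arrays with high bioB it had 1, and in the block and covariate fits 9 and 8. Mki67, the proliferation marker, read 1.55 ± 0.52 (adjusted p = 0.23) and Top2a 1.91 ± 0.46 (adjusted p = 0.079).

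Phagocyte genes formed the list with the most calls. All 28 tested members were higher in dystrophin-deficient muscle, with a median of 1.95, and 15 were called up, beside 1.28% of all genes. Gpnmb, a glycoprotein of lipid-laden macrophages, read 9.28, 9.99 and 11.32 in dystrophin-deficient muscle, against 5.63, 7.11 and 7.29 in dystrophin-positive muscle. Lgals3, which encodes galectin-3, read 10.67, 11.54 and 12.30, against 7.24, 8.62 and 9.30. Mpeg1, which encodes perforin-2, read 9.52, 10.37 and 11.35, against 6.57, 7.09 and 9.12. The groups of these 3 genes did not overlap. The changes were 3.22 ± 0.38, 3.07 ± 0.35 and 3.02 ± 0.42 (limma adjusted p = 0.00277, 0.00251 and 0.00641), and the calls held without any 1 array.

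Clec7a, the receptor dectin-1, rose by 2.76 ± 0.43 (limma adjusted p = 0.0114), with 1 overlap: wild type replicate 1 read 7.06, against 6.83 in the lowest dystrophin-deficient array and 4.77 to 5.37 in the other dystrophin-positive arrays. Cd68, a lysosomal protein of macrophages, rose by 2.74 ± 0.57 and Fcgr1, a high-affinity antibody receptor, by 2.73 ± 0.53 (adjusted p = 0.0413 and 0.0326). These 2 calls were lost without any of the 7 sensitive arrays, wild type replicate 3 or mdx replicate 3 (adjusted p up to 0.124 and 0.102). Cd163, a receptor of resident macrophages, read 0.43 ± 0.22 (adjusted p = 0.52), and Mrc1, the mannose receptor, 0.96 ± 0.24 (adjusted p = 0.091). Ms4a7, a membrane protein of macrophages that was not on the list, rose by 3.39 ± 0.46 (adjusted p = 0.00588). Atp6v0d2, a proton pump subunit of osteoclasts and macrophages, rose by 3.59 ± 0.57 from below the 40th percentile (adjusted p = 0.0121).

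The summed intensity of the phagocyte markers was 26350, 36330 and 59100 in dystrophin-deficient muscle (lowest, median and highest), against 9341, 11010 and 26430 in dystrophin-positive muscle. The groups overlapped in 1 array, wild type replicate 1, whose 26430 lay just above the 26350 of Cmah KO mdx replicate 1, and the next dystrophin-positive array read 13120. In bulk muscle more phagocytes and more RNA per phagocyte cannot be told apart. The count of 15 called members became 20 and 17 without wild type replicate 1 and Cmah KO mdx replicate 1. It became 6 or 7 without any of the 7 sensitive arrays, 9 without wild type replicate 3, and 7 without the 4 arrays with high bioB. The block and covariate fits called 25 and 24.

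**Figure D3:**
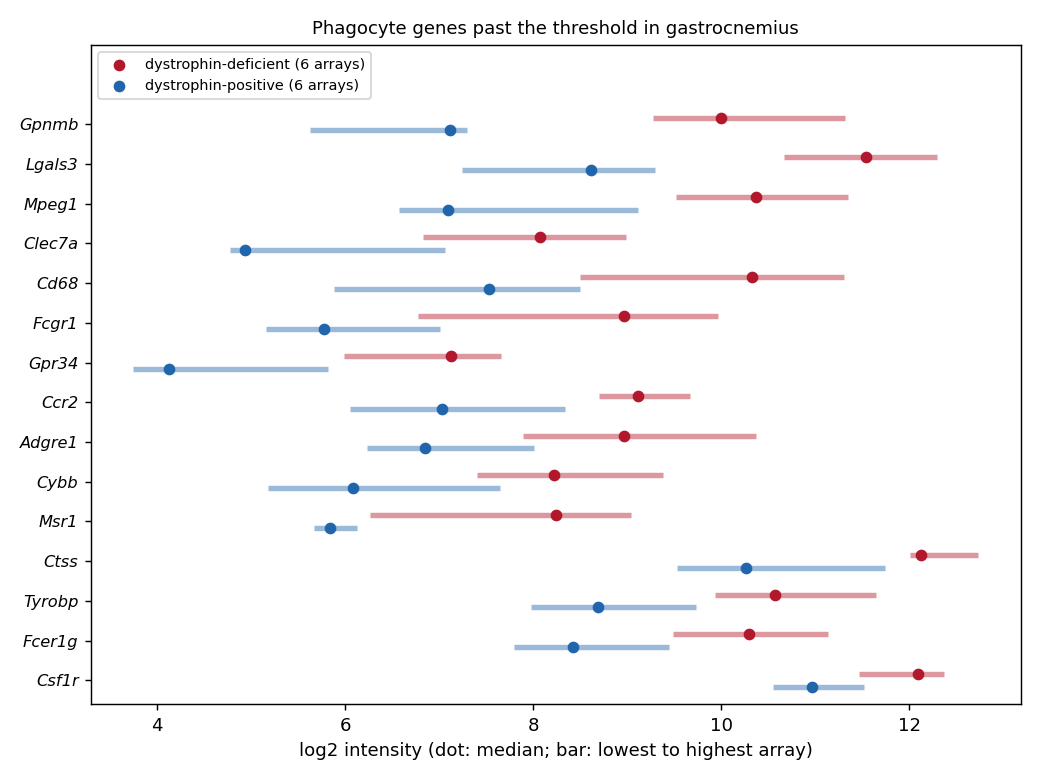
Log2 intensity of the 15 called phagocyte genes in the 6 dystrophin-deficient arrays (red) and the 6 dystrophin-positive arrays (blue), with the dot at the median and the bar from the lowest to the highest array. Each red median lies above the highest blue value. The bars of Gpnmb, Lgals3, Mpeg1 and Cd68 are among those that do not overlap. Over the 28 tested members of the list, called or not, 11 had no overlap.

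Cytokine and interferon genes were higher throughout their lists, with few calls. Of 18 tested cytokines and chemokines all were higher (median 1.08) and 3 were called, against 8 and 7 in the block and covariate fits. Il1rn, the interleukin-1 receptor antagonist, read 5.04, 6.91 and 8.10 in dystrophin-deficient muscle, against 3.72, 4.04 and 4.69, and rose by 2.79 ± 0.45 (limma adjusted p = 0.0127). Ccl8, a monocyte chemokine, read 10.35, 10.69 and 11.04, against 8.67, 9.15 and 10.16, and rose by 1.48 ± 0.24 (adjusted p = 0.0145). Both calls held without any 1 array. Il6 was called as well (1.72 ± 0.33, adjusted p = 0.0315), but both of its group means lay below the 40th percentile, and of the 9 fits without 1 array that tested it, those without wild type replicate 2, any Cmah KO array or Cmah KO mdx replicate 2 made no call. All 16 interferon response genes were higher (median 1.16) and 5 were called: Oasl2 (1.91 ± 0.35), Oas1a (1.78 ± 0.32), Oasl1 (1.62 ± 0.30), Rsad2 (1.38 ± 0.27) and Oas2 (1.13 ± 0.21), antiviral proteins of which the Oas enzymes sense double-stranded RNA. Their adjusted p lay between 0.0226 and 0.0326. The list had 0 calls without wild type replicate 2, Cmah KO replicate 2 or 3, mdx replicate 2 or Cmah KO mdx replicate 2 or 3, and 2 without Cmah KO replicate 1, whereas the block and covariate fits called 8 and 9.

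Among 13 complement genes 2 were called, with a median of 0.67, and the block and covariate fits called 5 each. C3ar1, the receptor for complement fragment C3a, read 8.51, 9.15 and 9.94 in dystrophin-deficient muscle, against 5.48, 6.76 and 7.71, without overlap. All 3 of its probe sets were called, the brightest at 2.50 ± 0.37 (limma adjusted p = 0.00927), and the call held without any 1 array. C1qb, a chain of C1q, rose by 0.88 ± 0.18 (adjusted p = 0.0444), a call kept only without wild type replicate 1 or mdx replicate 3 among the 12 fits that left out 1 array. Nox4, a superoxide-producing oxidase, was the called member of 13 NADPH oxidase and redox genes. It rose by 1.47 ± 0.25 (adjusted p = 0.0197), a call lost without Cmah KO replicate 2 or 3 or mdx replicate 2, and the block and covariate fits called 3 members each. None of the 13 MHC genes was called in limma, against 3 in each of the block and covariate fits, with all 13 higher (median 0.64), and H2-Ab1, a class II chain, read 1.00 ± 0.28 (adjusted p = 0.138). The 13 lysosomal hydrolases were likewise all higher (median 0.73) with 0 called, against 5 and 3 in the block and covariate fits. Ctsb, cathepsin B, read 0.69 ± 0.18 without overlap at its brightest probe set (adjusted p = 0.118, and 0.0364 in the block fit), with 1 of its 5 probe sets called.

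Genes of several matrix-degrading enzymes and of the protease inhibitor Timp1 rose. Of 18 matrix proteases and inhibitors 5 were called up, and their median was 1.21. Mmp12, macrophage elastase, read 7.18, 8.43 and 10.85 in dystrophin-deficient muscle, against 2.71, 3.82 and 4.66 in dystrophin-positive muscle, where its mean lay below the 40th percentile. Timp1, a tissue inhibitor of matrix proteases, read 8.22, 9.56 and 10.98, against 4.87, 6.36 and 6.91. Mmp14, a membrane-bound collagenase, read 8.17, 8.61 and 8.93, against 7.12, 7.33 and 7.62. The groups did not overlap in these 3 genes, with changes of 4.92 ± 0.61, 3.37 ± 0.51 and 1.21 ± 0.18 (limma adjusted p = 0.00337, 0.00972 and 0.009), and all 3 calls held without any 1 array. Adam8 (2.91 ± 0.61, adjusted p = 0.0444) and Adam12 (2.21 ± 0.46, adjusted p = 0.0454), membrane proteases of leukocytes and of regenerating fibres, were called as well. Both calls were lost without any of the 7 sensitive arrays or wild type replicate 3, and that on Adam8 also without mdx replicate 1 or 3 (adjusted p up to 0.131). The list had 8 calls without wild type replicate 1 and 11 in each of the block and covariate fits. Timp4, an inhibitor of heart and muscle, read -0.78 ± 0.22 (adjusted p = 0.14).

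All 26 interstitial matrix genes were higher, with a median of 0.79, and 1 was called. Bgn, the proteoglycan biglycan, read 11.48, 11.68 and 12.15 in dystrophin-deficient muscle, against 10.42, 10.83 and 10.96, and rose by 0.98 ± 0.18 at its brightest probe set (limma adjusted p = 0.0276). All 3 Bgn probe sets were called, and the call on the brightest was lost without any of the 7 sensitive arrays or wild type replicate 3 (adjusted p up to 0.0889). Without wild type replicate 1 the list had 5 calls, and in the block and covariate fits it had 10 and 9. Postn, periostin, read 2.09 ± 0.52 (adjusted p = 0.092) and Fn1, fibronectin, 0.96 ± 0.34 (adjusted p = 0.26). The fibrillar collagens Col1a1 and Col3a1 read 0.03 ± 0.20 and 0.41 ± 0.20, with adjusted p of 0.99 and 0.52. C1qtnf3, a secreted relative of C1q and outside the lists, rose by 3.45 ± 0.48 from below the 40th percentile (adjusted p = 0.00603). Fibroblast markers summed to 16740 to 22320 intensity units in dystrophin-deficient muscle, against 15030 to 19360, and 0 of 8 tested were called, with Pdgfra at 0.63 ± 0.18 without overlap (adjusted p = 0.159, and 0.0364 in the block fit).

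The gene of 1 enzyme of sialic acid transfer rose. St8sia2, a polysialyltransferase that adds chains of sialic acid to Ncam1, read 4.40, 6.30 and 7.08 in dystrophin-deficient muscle, against 2.58, 3.30 and 3.84 in dystrophin-positive muscle. The groups did not overlap and the change was 2.88 ± 0.35 (limma adjusted p = 0.00315), from a dystrophin-positive mean below the 40th percentile. It was the called member of 14 tested sialyltransferases, whose median was -0.07, and the call held without any 1 array. However, St8sia2 passed the filter only through the dystrophin-deficient arrays. Where at least 6 of 12 arrays had to lie above the percentile, the list had 0 calls. St8sia4, the other polysialyltransferase, read 0.80 ± 0.36 (adjusted p = 0.44). None of 12 genes of sialic acid metabolism was called (median 0.20), with Renbp, renin binding protein, at 1.04 ± 0.26 without overlap (adjusted p = 0.0846, and 0.0399 in the block fit). None of 12 dystroglycan glycosylation genes was called either (median -0.13), and Dpm2, a subunit of dolichol-phosphate mannose synthase, read 0.59 ± 0.16 without overlap (adjusted p = 0.127, and 0.0413 in the block fit).

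Genes that fell were few, and apart from Dmd none was on a fixed list. Cdh4, R-cadherin, read 4.71, 4.96 and 5.45 in dystrophin-deficient muscle, against 7.78, 8.05 and 8.70 in dystrophin-positive muscle. Its change of -3.12 ± 0.18 had the smallest adjusted p of the named genes (limma, 9.71e-06), and 2 of its 3 probe sets were called. Dusp26, a phosphatase of muscle and nerve, read 5.60, 6.76 and 7.63, against 9.32, 9.75 and 10.06, and fell by 3.04 ± 0.27 (adjusted p = 0.000405). The RIKEN gene 0610040J01Rik read 4.65, 4.99 and 5.58, against 6.63, 7.49 and 8.02, and fell by 2.38 ± 0.22 (adjusted p = 0.000405). Tafa4, a secreted neuronal protein, fell by 2.48 ± 0.40 to a mean below the 40th percentile, and Cd28, known as a T cell receptor for costimulation, fell by 1.54 ± 0.23 (adjusted p = 0.0127 and 0.00946). In all 5 genes the groups did not overlap and the call held without any 1 array.

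Further falls rested on particular arrays. Cntnap2, a neurexin relative of axons, fell by 1.92 ± 0.34 (limma adjusted p = 0.0201, and 0.0558 without Cmah KO replicate 2). Dach2, a nuclear repressor that links innervation to acetylcholine receptor genes, fell by 2.77 ± 0.52 (adjusted p = 0.0278) and read 4.34, 5.54 and 6.46 in dystrophin-deficient muscle, against 6.63, 8.22 and 9.54. Both of its probe sets were called, and the call was lost without any of the 7 sensitive arrays except mdx replicate 2, and without wild type replicate 3 (adjusted p up to 0.0863). Aqp4, the water channel that binds the dystrophin complex through syntrophin, read 9.09, 9.49 and 9.69, against 10.23, 10.30 and 10.36. Its fall by 0.88 ± 0.16 (adjusted p = 0.0238) was lost without any of the 7 sensitive arrays except wild type replicate 2 (adjusted p up to 0.0819). Tph1, tryptophan hydroxylase, fell by 1.26 ± 0.23 to a mean below the 40th percentile, and Krt222, a keratin relative, by 1.21 ± 0.22 (adjusted p = 0.0228 and 0.0232). Each of these 2 calls was lost without Cmah KO replicate 1 or 2, mdx replicate 2 or Cmah KO mdx replicate 3, that on Tph1 also without Cmah KO replicate 3 and that on Krt222 also without wild type replicate 2. Of 5 further named genes that fell, Stk26, a kinase, read 4.70, 6.32 and 6.71 in dystrophin-deficient muscle, against 6.92, 8.03 and 8.45, and fell by 1.74 ± 0.35 (adjusted p = 0.0355). Paqr9, 2310065F04Rik, Hspa1l and BE949265 fell by 1.44, 1.79, 1.34 and 1.34. Each of these 5 calls was lost without Cmah KO mdx replicate 2 or 3 or mdx replicate 2, and without between 5 and 9 arrays in all. Second, dimmer probe sets made no call for Cntnap2 (-0.74), Aqp4 (-0.97), Krt222 (-0.82) and Stk26 (-0.22).

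Of the 43 lists, 29 had no called member. Metabolic genes were slightly lower as groups without a call in limma: 20 of 21 genes of fatty acid uptake and oxidation were lower (median -0.19), 28 of 30 of the respiratory chain (median -0.09), and 14 of 14 of the citric acid cycle (median -0.07). Cd36, the fatty acid transporter, read -0.47 ± 0.21 (adjusted p = 0.441). All 9 adipocyte markers were lower (median -0.51), with Retn, resistin, at -1.20 ± 0.40 (adjusted p = 0.225). Their summed intensity was 17310 to 24920 in dystrophin-deficient muscle, against 20180 to 33900, with the highest value in wild type replicate 1. All 5 tested Schwann cell and myelin markers were lower (median -0.43), with Sox10 at -0.90 ± 0.28 (adjusted p = 0.199). Endothelial markers were level (median -0.01). The metabolic, adipocyte, Schwann cell and endothelial lists named here had 0 calls in the block and covariate fits too. Hlf, a clock output factor, read -1.27 ± 0.28 (adjusted p = 0.0584, and 0.0188 in the block fit), and Hspa1a, a heat shock protein, -1.87 ± 0.48 (adjusted p = 0.103, and 0.0414 in the block fit). Sln, sarcolipin, which inhibits the calcium pump, read 1.30 ± 0.45 (adjusted p = 0.258). Anxa5, a membrane repair annexin, read 0.84 ± 0.23 (adjusted p = 0.128, and 0.0408 in the block fit).

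**Figure D4:**
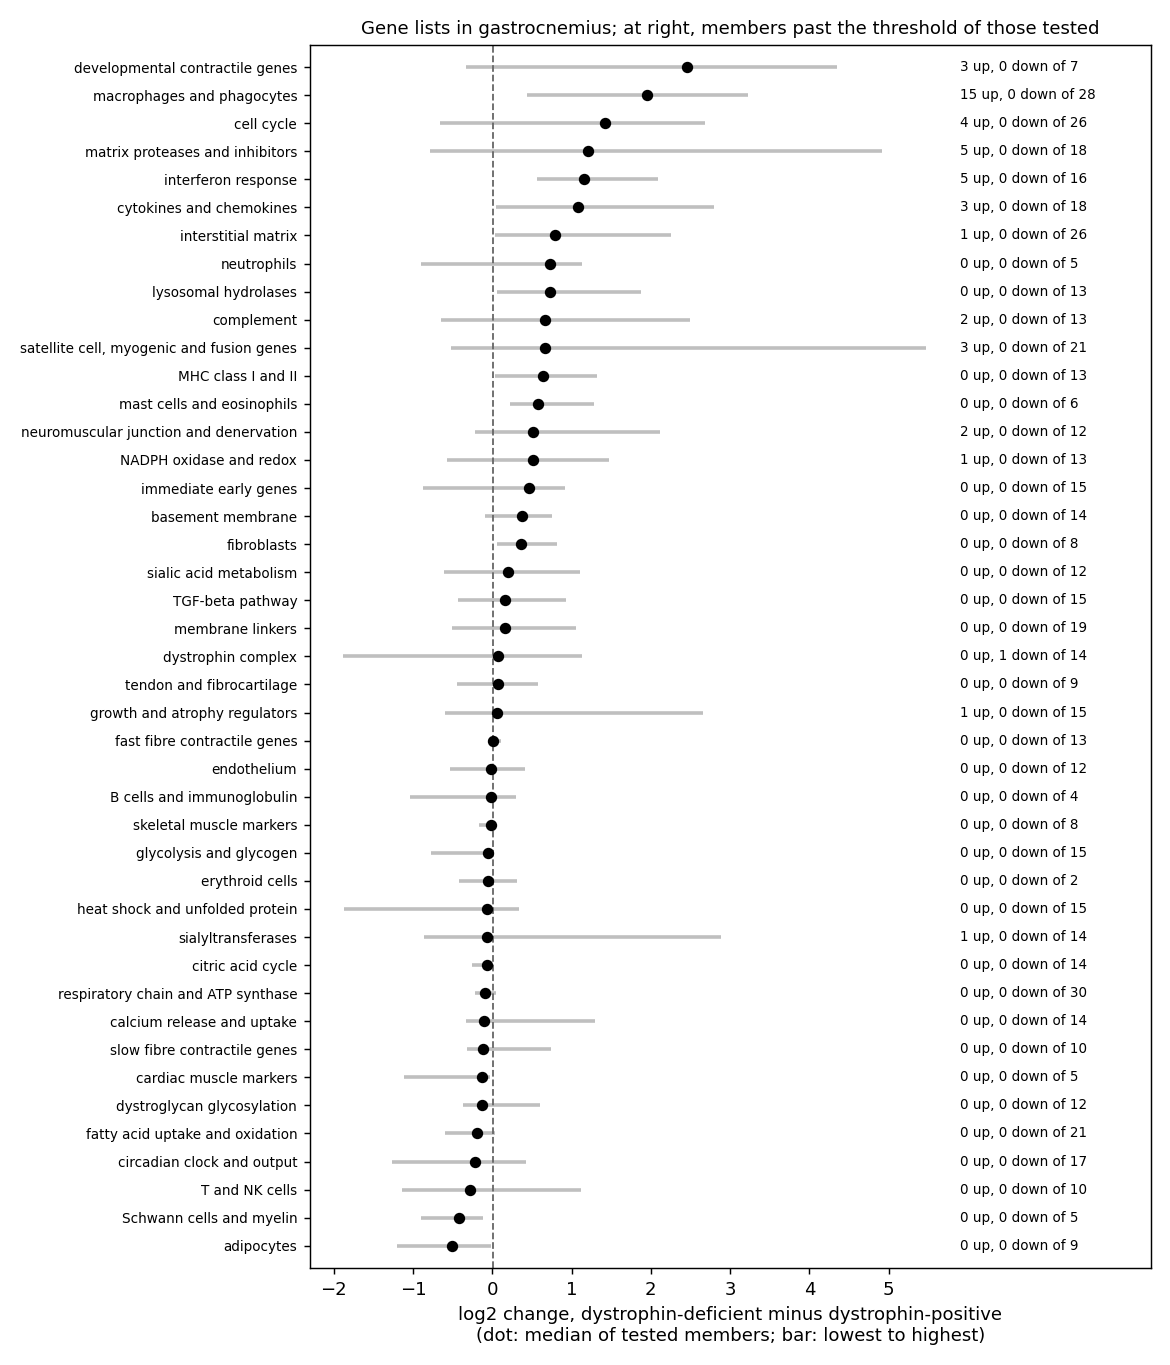
Log2 change of the 43 gene lists, with the dot at the median of the tested members and the bar from the lowest to the highest member; the text at the right counts members called up and down of those tested, and the dashed line is the median of all genes (0.02). Developmental contractile genes (2.46), phagocytes (1.95) and cell cycle genes (1.43) have the highest medians, and adipocytes (-0.51) the lowest.

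The same contrast in the hearts of the same 12 animals called 0 of 29421 probe sets in limma (273 at an unadjusted p below 0.05, where evenly spread p would give 1471). Without the 2 heart arrays with a large Gapdh difference, described below, 745 of 28785 had an unadjusted p below 0.05. The difference of the change between the tissues, gastrocnemius minus heart, came from 1 fit of the 24 arrays in which both tissues of an animal shared a random term, and 186 of 31070 probe sets were called, or 0.599%, with the change more positive in gastrocnemius at 170 and more negative at 16. Of the 191 genes called in gastrocnemius, 88 were also called for this difference, beside 136 of all 13224 genes tested. The 191 were chosen on the same gastrocnemius arrays, which raises their share. In heart the genes called up had a median change of -0.08, against 0.18 over all genes tested. The tissue count moved with single arrays: it was 392 without heart Cmah KO replicate 3, whose Gapdh control probe sets differ by 4.29 between the 3′ and 5′ ends, and 536 without it and heart Cmah KO mdx replicate 2 (4.43). It was 91 to 118 without Cmah KO replicate 1 or 3, mdx replicate 2 or Cmah KO mdx replicate 2 or 3 in gastrocnemius, or without Cmah KO replicate 1, mdx replicate 2 or 3 or Cmah KO mdx replicate 3 in heart.

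Among genes with the smallest p for the tissue difference, the fusion genes were low in heart whatever the genotype. Mymx read 2.19, 2.78 and 2.92 in dystrophin-deficient hearts, against 2.04, 2.67 and 3.77 in dystrophin-positive hearts, and its tissue difference was 5.61 ± 0.73 (limma adjusted p = 0.000306). Mymk read 3.06, 3.33 and 3.71 in dystrophin-deficient hearts, against 3.15, 3.44 and 4.67, with a tissue difference of 3.77 ± 0.48. Myh3 read 4.62, 5.34 and 5.58 in dystrophin-deficient hearts, against 4.09, 4.54 and 5.08, with a tissue difference of 3.07 ± 0.38. Timp1 was lower in dystrophin-deficient hearts, at 5.73, 6.97 and 7.69, against 7.30, 7.82 and 8.86, without a call in heart, and its tissue difference was 4.45 ± 0.56. Pclo differed by 2.51 ± 0.32 between the tissues. Mymk, Myh3, Timp1 and Pclo had the same adjusted p of 0.000306.

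Among genes whose change was more negative in gastrocnemius than in heart, Cdh4 read 4.42, 4.85 and 5.35 in dystrophin-deficient hearts, against 4.82, 5.07 and 7.49, with a tissue difference of -2.52 ± 0.41 (limma adjusted p = 0.00247). Dusp26 differed by -2.68 ± 0.37 and 0610040J01Rik by -2.61 ± 0.43 (adjusted p = 0.000525 and 0.00278). Aqp4 moved in opposite directions: it was lower in dystrophin-deficient gastrocnemius, whereas in heart it read 8.46, 8.80 and 9.32 in dystrophin-deficient animals, against 6.65, 7.91 and 8.54, without a call. Its tissue difference was -1.95 ± 0.32 (adjusted p = 0.00297), and that of BE949265, a transcript with no assigned role here, was -1.75 ± 0.30 (adjusted p = 0.00389). The calls of these 10 genes held without any 1 of the 24 arrays and without both heart arrays with a large Gapdh difference. Dmd differed by -0.96 ± 0.37 between the tissues without a call (adjusted p = 0.433).

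**Figure D5:**
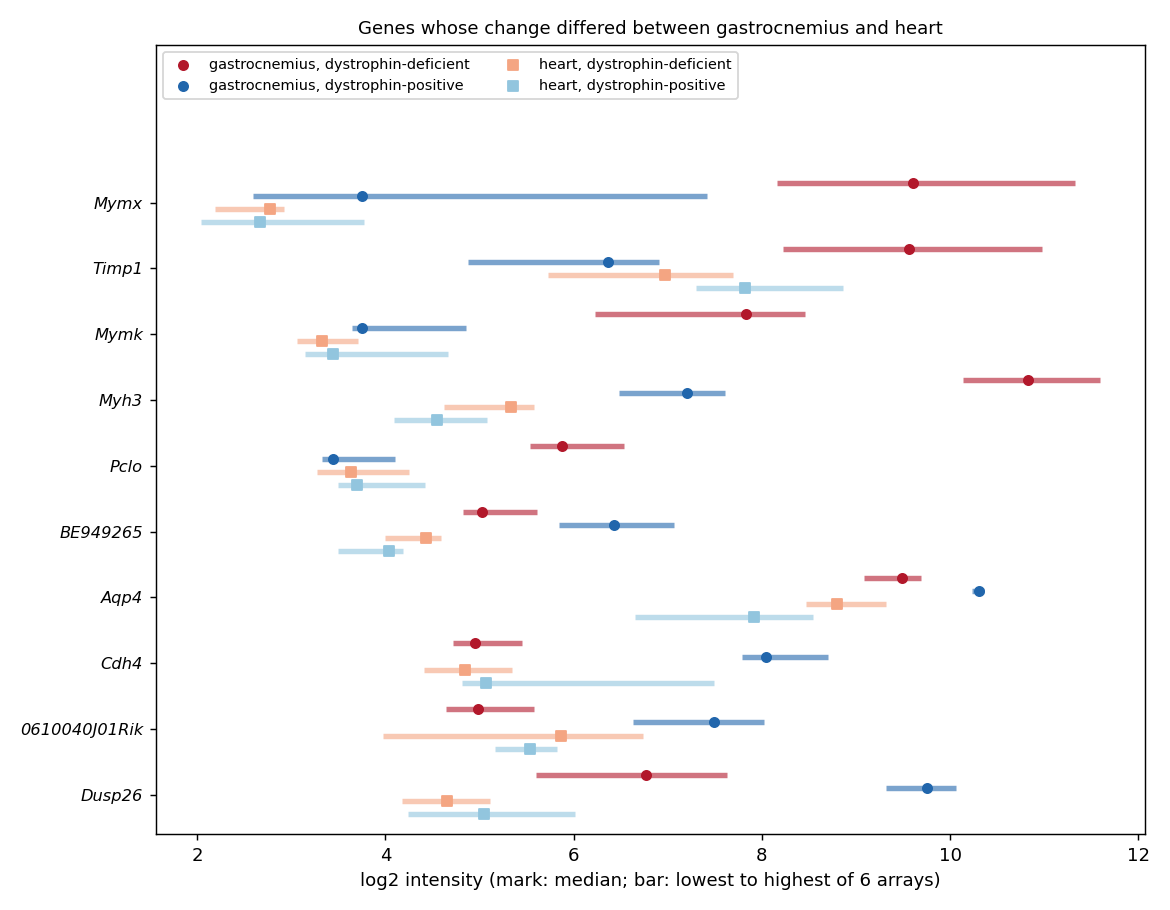
Log2 intensity of 10 genes called for the tissue difference, in gastrocnemius (circles) and heart (squares) of dystrophin-deficient and dystrophin-positive animals; the mark is the median and the bar runs from the lowest to the highest of 6 arrays. In gastrocnemius the dystrophin-deficient and dystrophin-positive bars of each gene are apart, and in heart they overlap in all 10.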

How the data were processed

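RNA from gastrocnemius and heart was measured on Affymetrix mouse arrays, 3 animals to each of 4 groups. The deposited values are linear intensities that the authors made with GCOS and RMA, per the submitters' processing notes, whose versions are not given in the sources used here; log2 of them was taken with nothing added. Probe sets named AFFX were left out. A probe set was tested where at least 3 of the 12 arrays of a tissue lay above the 40th percentile. limma 3.58.1 in R 4.3.3 was fitted with dystrophin and Cmah as terms (lmFit, eBayes), Benjamini-Hochberg adjusted p below 0.05 made a call, and the tissue difference used animal as a random block. Each gene was read at the brightest probe set that names it alone, with symbols updated to GRCm38.p6 through Entrez IDs: 34945 probe sets had 1 symbol, 932 several and 9160 none. The 43 lists have 664 entries for 655 different genes; 615 entries were measured and 586 tested, and the rest were not analysed here. Genes named were Dmd, Cmah and Nnt, the 15 called genes with the largest change in each direction among those without overlap, up to 6 called members per list or, where none was called, up to 2 with the smallest p, and up to 5 called genes per direction with the smallest p in the other fits. Further uncalled list members, such as Utrn, Chrne, Myog and Col1a1, were added for their roles after their values were seen. The members and lists were chosen with earlier results of these data known. The scripts were tested on simulated data. Each array is 1 animal, so that the number of arrays limits the precision. Alternatives covered scaling, filters, variance models, covariates and each array left out.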

Additional observations from a re-analysis of the deposited data

Results flagged for a closer look

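Of 244 groups of 6 arrays that were checked, 10 held 1 array far from the other 5, where chance gives about 1 in 20. In wild type replicate 1, Clec7a read 7.06 (4.77 to 5.37 in the other 5 dystrophin-positive arrays), Gzma 6.13 (3.30 to 3.92), Klrd1 7.83 (3.89 to 5.29) and Bmp1 7.18 (6.40 to 6.65). In wild type replicate 3, Gpnmb read 5.63 (6.72 to 7.29) and Elovl7 6.03 (3.16 to 4.23). Paqr9 read 9.46 in Cmah KO replicate 2 (7.89 to 8.39), and Pclo 4.10 in Cmah KO replicate 1 (3.32 to 3.60). In mdx replicate 3, Stk26 read 4.70 (6.20 to 6.71 in the other 5 dystrophin-deficient arrays) and Myh1 13.45 (13.00 to 13.16).

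In limma's test of the difference between gastrocnemius and heart, 10 genes were flagged, those called with the smallest p in each direction. The difference was 5.61 for Mymx, 4.45 for Timp1, 3.77 for Mymk, 3.07 for Myh3 and 2.51 for Pclo. It was -2.68 for Dusp26, -2.61 for 0610040J01Rik, -2.52 for Cdh4, -1.95 for Aqp4 and -1.75 for BE949265. Other named genes were called in that test too, among them Mmp12 (6.82), Gpnmb (4.49), Myh8 (3.66) and Cd28 (-2.27).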

How the results depend on the processing

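The 299 called probe sets became 1424 with array weights, 868 with the Gapdh difference as a covariate and 1196 with the bioB sets as a block. At an adjusted p below 0.01 they were 58, and without each array in turn they ran from 108 to 481. The fit within the 4 arrays with high bioB held 1 array of each group, with little power for calls, and its count is not given. Under the other alternatives that were run the count stayed within 1.5 times. The bioB block, the fits with or without the 4 arrays and the fit without 2 heart arrays were chosen after seeing the data. With a replicate block the count was 256; shared numbers were not taken as pairing over the 4 groups, since 10 of 18 pairs of arrays with the same number had r above 0.1 (-0.577 to 0.615), although all 3 pairs did in Cmah KO with mdx (0.195 to 0.600) and mdx with Cmah KO mdx (0.175 to 0.615), and 4 of 12 arrays correlated best with their own number. Dmd kept its direction throughout, at -1.63 within the 4 arrays with high bioB, and kept its call in every other fit. The count for the difference between Cmah backgrounds was 0 in every fit. That in heart was 38 with array weights and otherwise 0. The tissue count of 186 became 2453 with array weights, 546 with the Gapdh covariate and 536 without 2 heart arrays, and ran from 91 to 392 without each array in turn. Causes were not tested. Over the alternatives of the named genes, 3008 values kept their side of the threshold, 291 lost a call and 48 gained one. Calls lost within the 4 arrays with high bioB are among the 291, though that fit had little power. None reversed its sign where the main or the alternative fit made a call. A change of sign where neither made a call was counted among the 3008. Low signal limits the size of changes: 36 genes called up and 2 called down had their lower mean below the 40th percentile.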

Other observations

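Some called genes outside the lists are given here, chosen by hand after their values were seen. Tubb6, a beta-tubulin, read 10.24, 10.64 and 11.55 in dystrophin-deficient muscle (lowest, median and highest), against 8.58, 8.86 and 9.71 in dystrophin-positive muscle. Tubb2b, another beta-tubulin, read 9.90, 10.40 and 10.65, against 8.03, 8.59 and 9.15. The changes were 1.82 ± 0.26 and 1.70 ± 0.22 (limma adjusted p = 0.00699 and 0.00472), without overlap. Dclk1, a microtubule-binding kinase, rose by 1.98 ± 0.26 and Vash2, a vasohibin, which removes tyrosine from tubulin, by 2.31 ± 0.25 (adjusted p = 0.00503 and 0.00184). Uchl1, a neuronal ubiquitin hydrolase, rose by 1.24 ± 0.21 (adjusted p = 0.0166).

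Fcgr4, an antibody receptor, rose by 2.84 ± 0.47 and Itgax, which encodes CD11c, by 2.71 ± 0.45 (limma adjusted p = 0.0145 for both), each without overlap. Among falls, Sorl1, a sorting receptor, read 8.85, 9.03 and 9.33 in dystrophin-deficient muscle, against 10.00, 10.07 and 10.29, and fell by 1.05 ± 0.16 (adjusted p = 0.009). Ugt8a, the enzyme that makes the myelin lipid galactosylceramide, fell by 1.04 ± 0.18 (adjusted p = 0.0204).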
